A study of Mus musculus with 8 samples.

Results

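Immune checkpoint genes encode the surface proteins that restrain or permit T cell activation. The 10 genes described here are inhibitory receptors, their ligands and the costimulatory ligands they compete for: Lag3, Havcr2, Vsir, Cd274, Pdcd1, Ctla4, Tigit, Cd80, Cd86 and Cd276. They were found by symbol among 35975 annotated genes of the deposited transcript tables, and all 10 were matched. The libraries came from fibrosarcomas of syngeneic cells grown under the skin of WT C57BL/6 mice, so every animal was wild type and no library came from a treated or mutant animal. Digested tumor cells, freed of red cells by lysis, were run through magnetic columns. The 4 iron positive libraries hold what the columns retained, and the 4 iron negative libraries hold the flowthrough. Each fraction has one library for each of the tags 3L, 3R, 4R and 5L. The sources used here do not say whether a tag is one animal, so p-values measure the spread between these libraries, which may be technical.

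Checkpoint receptors such as PD-1, CTLA-4, LAG-3, TIM-3 and TIGIT are best known from activated, regulatory and exhausted T cells. Macrophages and dendritic cells carry much of the other side of these contacts, including CD80, CD86, PD-L1 and MHC class II, and they also make VISTA and TIM-3 themselves. B7-H3, the product of Cd276, is widely made by tumor, stromal and tumor vessel cells. The series is described as one of macrophages, which can load iron by engulfing red cells, and the comparison asks which transcripts differ between the fractions. No antibody sort is given, and cells other than macrophages can be present in both.

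Macrophage transcripts dominated both fractions. The 10 macrophage markers summed to 20100 to 26600 CPM (counts scaled to library size) in iron positive libraries and 26600 to 28800 CPM in iron negative libraries. T cell transcripts were scarce, with 15 markers summing to 24.5 to 33.3 CPM in iron positive libraries and 34.5 to 54.0 CPM in iron negative libraries, most of it Cd4, which is not made by T cells alone. Cd3e, a defining T cell gene, averaged 0.212 CPM in iron positive libraries and 0.746 CPM in iron negative libraries. The 10 endothelial markers summed to 171 to 1440 CPM in iron positive libraries, against 35.9 to 71.6 CPM in iron negative libraries, and all 10 rose (median log2 fold change 4.88). The fibroblast and fibrosarcoma markers summed to 497 to 4710 CPM in iron positive and 129 to 392 CPM in iron negative libraries. Tags 3R and 4R held the most of both stromal lists among the iron positive libraries. Libraries held 19.04 to 24.31 M estimated counts. In bulk RNA, fewer cells of a type and less RNA per cell cannot be told apart.

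Of the 10 checkpoint genes, 4 were lower in the iron positive fraction: Lag3, Cd86, Havcr2 and Vsir. None was higher. Lag3 showed the largest called difference, at 0.474 times its iron negative level, and the other 3 lay at 0.708 (Cd86), 0.769 (Havcr2) and 0.828 (Vsir) times it. Cd274, Cd276, Cd80 and Tigit did not pass the test, Ctla4 passed it only in some fits, and Pdcd1 had too few counts to be tested. The test was edgeR's quasi-likelihood F-test on the fraction, with Benjamini-Hochberg adjustment over 13343 genes and a threshold of 0.05. It called 8.49% of these genes higher and 5.21% lower in the iron positive fraction. Against that background stand 4 of 9 tested checkpoint genes lower and 0 of 9 higher. These genes were chosen with earlier results of these data known, so the contrast is a description and no test of the set. At an unadjusted edgeR p under 0.05 the counts were 5 lower and 0 higher, and DESeq2 called 5 lower and 0 higher. The share of 5.21% is no background for these counts, since shares of all genes by unadjusted p or DESeq2 are not given. The median log2 fold change was -0.27 over the 9 tested checkpoint genes and -0.01 over all genes tested. In CPM, each iron positive library lay below each iron negative library for Lag3, Cd86, Havcr2 and Vsir, 4 of the 9 tested checkpoint genes, against 10.3% of all genes tested. None of the 9 had each iron positive library above each iron negative one.

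The number of calls depended on which libraries were used. Without iron positive 3R or 4R, edgeR called 2 checkpoint genes, Lag3 and Cd86, and without iron positive 3L it called 3. Leaving out iron negative 3L, 3R, 4R or 5L left 0 called, although 4 to 5 checkpoint genes had an unadjusted p under 0.05. DESeq2 on the same libraries, an alternative chosen after seeing the data, called 5 without iron negative 3L and 4 without iron negative 3R, 4R or 5L. Without a whole tag, edgeR called 1 gene (3L, Ctla4), 1 (3R, Lag3), 0 (4R) and 3 (5L), where 5, 4, 5 and 4 genes had an unadjusted p under 0.05, and DESeq2 without tag 4R called 3. The 4 genes had a negative log2 fold change in each of these fits. Shares of all genes passing in these fits are not given here.

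**Figure D1:**
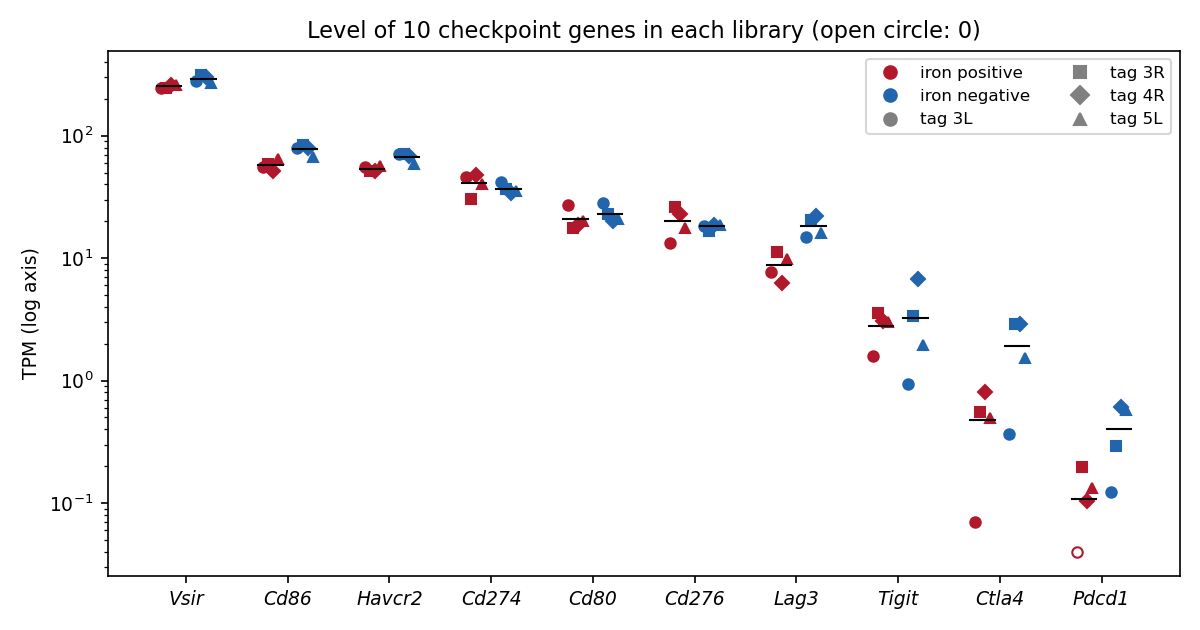
Level of each of the 10 checkpoint genes in TPM (log axis) in the 4 iron positive libraries (red, left of each pair) and the 4 iron negative libraries (blue, right), ordered by mean level. Bars are means, marker shapes are tags and the open circle at the foot of the axis stands for 0. Vsir lies at 244 to 261 TPM in iron positive and 271 to 315 TPM in iron negative libraries, above each other gene, and Pdcd1 lies lowest.

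Levels between genes were compared in TPM, which corrects for transcript length. Vsir was the most abundant, at 252 ± 8.98 TPM in iron positive libraries and 291 ± 20.5 TPM in iron negative libraries (SD, n = 4 each). It alone made up 55.1% of the summed checkpoint TPM in the iron positive fraction and 54.1% in the iron negative fraction. In iron positive libraries Cd86 (57.5 ± 5.45 TPM) and Havcr2 (53.7 ± 2.71) followed with overlapping ranges, then Cd274 (40.9 ± 7.70), then Cd80 (20.9 ± 4.17) and Cd276 (20 ± 5.64) with overlapping ranges. Lag3 (8.76 ± 2.21), Tigit (2.81 ± 0.850), Ctla4 (0.479 ± 0.303) and Pdcd1 (0.108 ± 0.0819) came last, and of these only Ctla4 and Pdcd1 overlapped. The order in iron negative libraries differed in one place. Lag3 (18.3 ± 3.4 TPM) stood between Cd80 (23.1 ± 3.77) and Cd276 (18.1 ± 0.965) there, with ranges that overlapped on both sides.

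Lag3 encodes the inhibitory receptor LAG-3, a relative of CD4 that binds MHC class II. It lies at chr6:124904361-124911705 on the minus strand (GRCm38, the assembly also called mm10). LAG-3 carries a KIEELE motif in its cytoplasmic tail that is tied to its inhibitory function in T cells. The bases that code for it, residues 490 to 495 of 521, are the capitals in the stretch below, which is transcribed from chr6:124904493-124904570 (minus strand), in the final part of the coding sequence. It is shown because the transcript that carries it, Lag3-201, held nearly all Lag3 TPM in both fractions.
Lag3-201 coding stretch: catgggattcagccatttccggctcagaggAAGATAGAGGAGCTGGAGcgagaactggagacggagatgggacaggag

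Lag3 was at 10.4, 15.1, 8.24 and 12.9 CPM in iron positive libraries 3L, 3R, 4R and 5L, against 21.3, 27.3, 27.0 and 22.7 CPM in the iron negative libraries of the same tags. The highest iron positive library lay below the lowest iron negative one. The log2 fold change was -1.08 ± 0.18 (SE), with an edgeR adjusted p of 0.0173, and it placed Lag3 at rank 11 among the 695 genes called lower. The differences by tag were -0.99, -0.84, -1.66 and -0.79 on the log2 scale, so 4R differed most. Lag3-201 held 96.4% of Lag3 TPM in iron positive libraries and 94.5% in iron negative libraries. A short noncoding transcript, Lag3-202, held the remainder on at most 7.7 estimated counts in a library.

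Among described ligands of LAG-3, the MHC class II chains fell. H2-Aa, H2-Ab1 and H2-Eb1, chains of the classical molecules, fell by 1.11, 1.07 and 1.12 on the log2 scale (edgeR adjusted p 0.0231, 0.0260 and 0.0242). With the macrophage marker scaling described below they were at -0.83, -0.79 and -0.84 and did not pass (adjusted p 0.0515, 0.0596 and 0.0525). H2-Aa stood at 870 ± 242 CPM in iron positive libraries and 1880 ± 427 CPM in iron negative libraries (SD, n = 4 each). Lgals3, which encodes the LAG-3 ligand galectin-3, stood at 700 ± 239 CPM in iron positive and 505 ± 85.3 CPM in iron negative libraries (SD, n = 4 each). It was higher in 3 of 4 tags and did not pass the test (log2 fold change 0.47, adjusted p 0.217), but passed it with macrophage marker scaling (0.71, adjusted p 0.0334). Fgl1, another described LAG-3 ligand, did not pass the filter on low counts. It averaged 0.347 CPM in iron positive and 0.23 CPM in iron negative libraries. It had 11, 8, 7 and 3 counts in iron positive libraries 3L, 3R, 4R and 5L, against 5, 8, 5 and 2 counts in iron negative libraries. Lag3 is also known from T cells, NK cells and plasmacytoid dendritic cells. The 9 NK cell markers summed to 2.40 to 4.64 CPM in iron positive and 5.35 to 10.5 CPM in iron negative libraries, and the 7 plasmacytoid dendritic cell markers to 89.9 to 171 CPM in iron positive and 80.6 to 101 CPM in iron negative libraries, most of it Tcf4. Of the 4 tested plasmacytoid markers 0 passed the edgeR test, also at an unadjusted p under 0.05, and their median was 0.15 on the log2 scale. The defining gene Siglech averaged 0.481 CPM in iron positive and 0.509 CPM in iron negative libraries. Of the 8 tested T cell markers only Cd4 passed the test (-0.79 ± 0.14, adjusted p 0.0177). The part of these cells in the Lag3 difference was not tested.

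Havcr2 encodes TIM-3, an inhibitory receptor of T cells that macrophages and dendritic cells also make. The gene lies at chr11:46454935-46481255 on the plus strand. Its RefSeq promoter window on GRCm38.p6, chr11:46454681-46454980, is shown because it holds letters that match the motif of PU.1, the myeloid transcription factor (GAGGAAGT), at position -8 from the start site. A hypoxia response core (ACGTG) lies at position -100. Both are in capitals.
Havcr2 promoter: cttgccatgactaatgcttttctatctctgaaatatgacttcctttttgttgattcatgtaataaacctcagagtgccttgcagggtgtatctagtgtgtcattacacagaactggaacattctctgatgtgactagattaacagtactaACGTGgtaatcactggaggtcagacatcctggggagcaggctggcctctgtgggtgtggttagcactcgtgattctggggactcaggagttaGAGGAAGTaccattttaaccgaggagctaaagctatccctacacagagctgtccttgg

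Havcr2 was at 116, 96.1, 96.1 and 110 CPM in iron positive libraries 3L, 3R, 4R and 5L, against 151, 142, 133 and 118 CPM in the iron negative libraries. The fractions did not overlap, but iron positive 3L (116 CPM) came close to iron negative 5L (118 CPM). The log2 fold change was -0.38 ± 0.09 (SE; edgeR adjusted p 0.0349), and by tag it was -0.38, -0.56, -0.47 and -0.10. All Havcr2 counts were assigned to Havcr2-201. Lgals9, which encodes the TIM-3 ligand galectin-9, fell by 0.21 ± 0.05 (adjusted p 0.0386) but was at 0.06 with the macrophage marker scaling described below. The Havcr2 to Lgals9 ratio in TPM was 0.285 ± 0.0274 in iron positive libraries and 0.322 ± 0.0277 in iron negative libraries (SD, n = 4 each). Ceacam1, described as a further TIM-3 partner, rose by 1.03 ± 0.18 (adjusted p 0.0177). It stood at 13.1 ± 3.11 CPM in iron positive and 6.41 ± 0.594 CPM in iron negative libraries, and vessel cells, whose markers are given above, also make it. Their part in this difference was not tested.

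Vsir encodes VISTA, an inhibitory ligand and receptor made mostly by myeloid cells. It lies at chr10:60346851-60372684 on the plus strand. Levels were 620, 586, 608 and 626 CPM in iron positive libraries 3L, 3R, 4R and 5L, against 757, 776, 732 and 682 CPM in iron negative libraries. No iron positive library reached the lowest iron negative one. The log2 fold change was -0.27 ± 0.07 (SE; edgeR adjusted p 0.0318), and by tag it was -0.29, -0.41, -0.27 and -0.12. The transcript make-up was alike: Vsir-201 held 60.3% ± 1.32 of Vsir TPM in iron positive libraries and 61.1% ± 1.24 in iron negative libraries, and Vsir-202 held 24% in each (SD, n = 4 each).

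**Figure D2:**
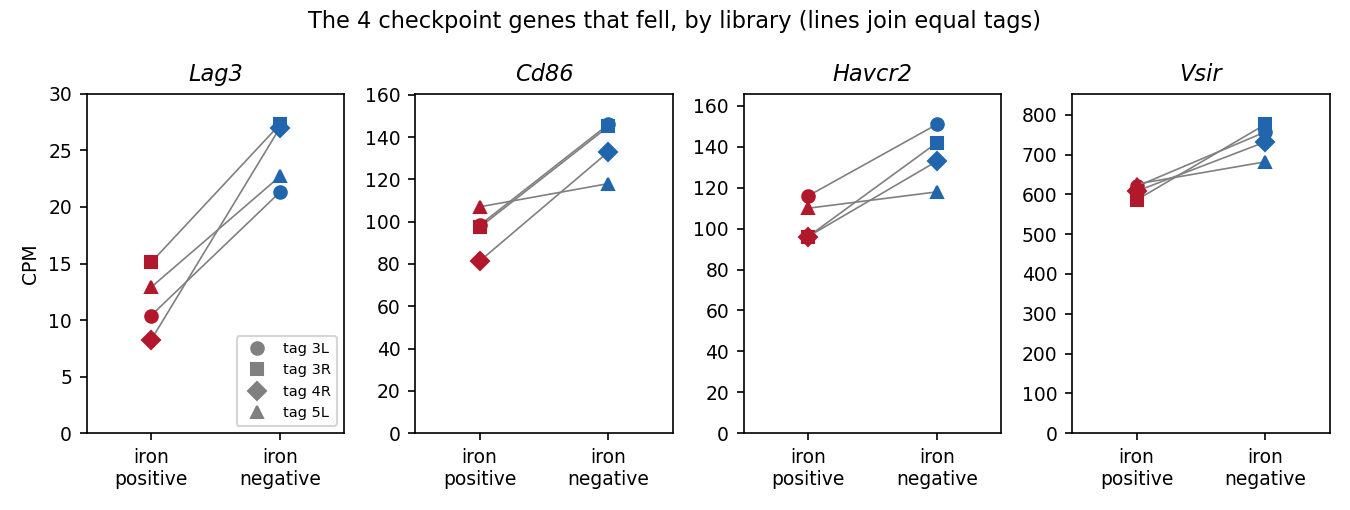
CPM of Lag3, Cd86, Havcr2 and Vsir in each iron positive library (red, left) and iron negative library (blue, right), with lines that join libraries of the same tag and axes that start at 0. In each panel the 4 iron positive values lie below the 4 iron negative values, and tag 5L has the smallest difference.

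CD86 and CD80 are the costimulatory ligands of antigen-presenting cells. Both bind CD28, which activates T cells, and CTLA-4, which restrains them. Cd86 (chr16:36603869-36666081, minus strand) was at 98.3, 97.3, 81.3 and 107 CPM in iron positive libraries 3L, 3R, 4R and 5L, against 146, 145, 133 and 118 CPM in iron negative libraries. The fractions were apart in each tag, least in 5L. Its log2 fold change was -0.50 ± 0.10 (SE; edgeR adjusted p 0.0199), and the main coding transcript Cd86-201 held 89.7% of its TPM in iron positive libraries and 91.4% in iron negative libraries.

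Cd80 (chr16:38455561-38496335, plus strand) was at 41.6, 22.7, 25.6 and 28.1 CPM in iron positive libraries, against 44.4, 31.7, 27.0 and 29.3 CPM in iron negative libraries. It was lower in each of the 4 tags, but the fractions overlapped and tag 3L stood high in both. The log2 fold change was -0.17 ± 0.22 (SE; edgeR adjusted p 0.645). Blocked by tag, it was -0.18 ± 0.09 (adjusted p 0.193). The Cd86 to Cd80 ratio in TPM was 2.83 ± 0.578 in iron positive and 3.4 ± 0.491 in iron negative libraries (SD, n = 4 each), with overlapping ranges. Cd28, their shared receptor, averaged 1.08 CPM in iron positive and 0.756 CPM in iron negative libraries and did not pass the test (adjusted p 0.352).

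Of the 10 macrophage markers, 4 fell, 0 rose and 6 did not pass the test, with a median log2 fold change of -0.30. Csf1r, the receptor for the macrophage growth factor, fell by 0.61 and Adgre1, which encodes the macrophage antigen F4/80, by 0.43. Those that did not pass were Lyz2 (0.11), Mertk (0.05), Itgam (-0.09), Cd68 (-0.10), C1qa (-0.37, adjusted p 0.0585) and C1qb (-0.32, adjusted p 0.0777). C1qa and C1qb were lower in each of the 4 tags, and their fractions did not overlap in CPM. Scaling the libraries to these 10 markers moved the median of all genes tested to 0.25. On that scale Lag3 was the only checkpoint gene called (-0.80 ± 0.23, adjusted p 0.0399). Cd86 was at -0.24 (adjusted p 0.142), Havcr2 at -0.13 (adjusted p 0.276) and Vsir at -0.02 (adjusted p 0.892). The median of the 9 tested checkpoint genes was then -0.02.

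**Figure D3:**
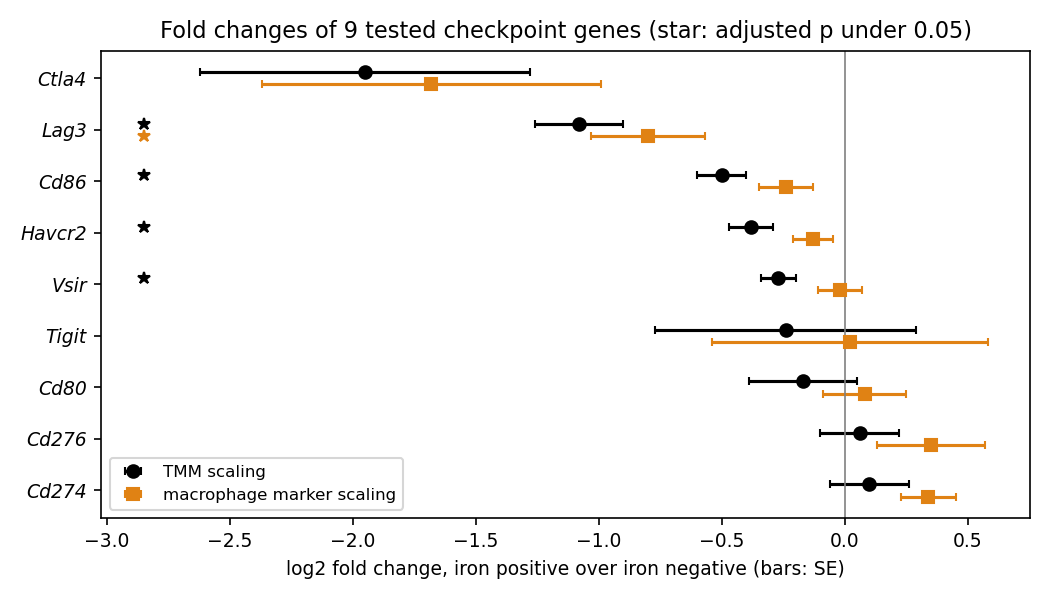
Log2 fold change (iron positive over iron negative, bars are SE) of the 9 tested checkpoint genes under TMM scaling (black circles) and after scaling to 10 macrophage markers (orange squares). Stars mark adjusted p under 0.05: Lag3, Cd86, Havcr2 and Vsir under TMM scaling, and Lag3 under marker scaling.

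Cd274 encodes PD-L1, the inhibitory ligand of PD-1, which interferon gamma induces. It lies at chr19:29367455-29388095 on the plus strand. Its RefSeq promoter window (GRCm38.p6, chr19:29367188-29367487) is shown because letters that match an interferon-stimulated response element core (GAAANNGAA) lie there on the minus strand at position -76, in capitals, with a hypoxia response core (ACGTG) on the minus strand at position 40.
Cd274 promoter: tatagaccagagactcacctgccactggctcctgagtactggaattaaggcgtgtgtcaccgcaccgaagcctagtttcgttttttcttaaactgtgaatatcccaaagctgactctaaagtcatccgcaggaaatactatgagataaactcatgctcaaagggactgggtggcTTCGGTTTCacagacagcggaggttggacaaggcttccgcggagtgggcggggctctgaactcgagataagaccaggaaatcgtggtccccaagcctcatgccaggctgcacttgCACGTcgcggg

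Promoter windows were given for 8 of the 10 genes and were searched on both strands for 6 motifs. The interferon-stimulated core occurred in those of Cd274 and Ctla4, against 8.56% of 32851 windows of the same 300 bases. A PU.1 match occurred in Havcr2 alone (3.20% of windows) and an antioxidant response core (TGACNNNGC) in Tigit alone (12.4%). The hypoxia response core occurred in Havcr2, Cd274, Ctla4 and Tigit (19.6%). Neither the interferon gamma activated site (TTCNNNGAA, 8.30%) nor the NF-kB site (GGGANTTCC, 1.68%) occurred in any of the 8. No 2 matches within a window overlapped.

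Cd274 was at 130, 78.2, 120 and 108 CPM in iron positive libraries 3L, 3R, 4R and 5L, against 121, 99.5, 89.2 and 98.5 CPM in iron negative libraries. Iron positive values were higher in 3 tags and lower in 3R, the iron positive library with the most stromal and the fewest macrophage transcripts. The part of cell content in the 3R value was not tested. The log2 fold change was 0.10 ± 0.16 (SE; edgeR adjusted p 0.718), and with macrophage marker scaling it was 0.34 ± 0.11 (adjusted p 0.0566). Its sign turned without iron positive 3L or without tag 4R, where it was 0.00 and -0.01. Exon bases of Cd274 overlap a gene on the opposite strand, AC119228.1, over 511 of 3622 bases. AC119228.1 was not among the genes counted, and whether the authors' run used strand is not known here. Pdcd1lg2, which encodes the second PD-1 ligand, PD-L2, was far lower, with a Cd274 to Pdcd1lg2 ratio in TPM of 44.4 ± 13.4 in iron positive and 31.5 ± 19 in iron negative libraries (SD, n = 4 each), and it did not pass the test (-0.56, adjusted p 0.262).

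Of 17 tested genes of the interferon gamma response and PD-L1 control, 6 fell and 0 rose, against 5.21% and 8.49% of all genes tested. The median log2 fold change of the 17 was -0.17. Among those that fell were Ifngr1, Nfkb1, Ifngr2, Rela and Cmtm6. Ifngr1, a receptor chain, stood at 235 ± 11.6 CPM in iron positive and 294 ± 14.5 CPM in iron negative libraries (SD, n = 4 each). It fell by 0.32 (adjusted p 0.0185), as did Nfkb1, which encodes an NF-kB subunit (adjusted p 0.0287). Irf1 did not pass (-0.23 ± 0.24, adjusted p 0.563), and Ifng itself was below the filter. With macrophage marker scaling 0 of these genes were lower and 3 were higher, and Ifngr2 and Rela stood at 0.01 and 0.05. On that scale the median of all genes tested was 0.25, and the share of all genes called is not given here.

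Ctla4, Pdcd1 and Tigit encode receptors made chiefly by T cells, and each rested on few counts. Ctla4 (chr1:60887000-60915832, plus strand) had 2, 14, 20 and 11 counts in iron positive libraries 3L, 3R, 4R and 5L, against 12, 73, 61 and 38 counts in iron negative libraries. Iron positive counts were lower in each tag. The fractions overlapped because iron negative 3L, with 12 counts, lay below iron positive 3R and 4R. The log2 fold change was -1.95 ± 0.67 (SE) with an edgeR adjusted p of 0.0869 on the fraction alone. With the tag as a block it was -1.95 ± 0.28 with an adjusted p of 0.00526, and DESeq2 without the block gave an adjusted p of 0.0314.

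Transcript Ctla4-202 lacks the third exon of Ctla4-201, which codes for the membrane-spanning part, and such transcripts are known as the soluble form. The skipped exon, chr1:60913219-60913328 on the plus strand (110 bases), is shown as the sequence by which the forms differ.
Ctla4-201 exon: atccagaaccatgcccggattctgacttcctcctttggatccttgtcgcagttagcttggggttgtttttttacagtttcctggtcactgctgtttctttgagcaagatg
Ctla4-202 was assigned at most 1.0 estimated count in an iron positive library and at most 6.7 in an iron negative library, so its share was not resolved at this depth.

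Pdcd1, which encodes PD-1 (chr1:94038305-94052553, minus strand), had 0, 5, 3 and 4 counts in iron positive libraries and 4, 8, 18 and 18 counts in iron negative libraries. A count of 0 in iron positive 3L allows up to 3 counts, or 0.15 CPM. Counts were lower in the iron positive library of each tag, with overlapping fractions, and without the filter on low counts the adjusted p was 0.143. Tigit (chr16:43648867-43664146, minus strand) had 18.1, 36.5, 35.2 and 34.9 estimated counts in iron positive libraries, against 12.1, 36.7, 78.9 and 23.8 in iron negative libraries. The iron negative 4R library stood high, and the log2 fold change was -0.24 ± 0.53 (SE; edgeR adjusted p 0.791). Without iron negative 4R it was 0.37 (adjusted p 0.626).

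Regulatory T cells express Ctla4 and Tigit, and their markers were likewise sparse. Foxp3, their defining transcription factor, averaged 0.563 ± 0.246 CPM in iron positive and 1.36 ± 0.636 CPM in iron negative libraries (SD, n = 4 each; log2 fold change -1.26, adjusted p 0.0990, and 0.0395 with the tag as a block). Icos, a costimulatory receptor of activated T cells, was at -1.49 (adjusted p 0.0812, and 0.0221 with the block). Summed over Foxp3, Il2ra and Ikzf2, the level was 3.79 to 5.49 CPM in iron positive and 4.24 to 9.41 CPM in iron negative libraries. Of the T cell receptor genes, Trac averaged 0.453 CPM in iron positive and 1.27 CPM in iron negative libraries (adjusted p 0.137, and 0.0360 with the block), and Trbc2 averaged 2.52 CPM in iron positive and 2.28 CPM in iron negative libraries (adjusted p 0.887). Trbc1, below the filter on low counts, averaged 0.0252 CPM in iron positive and 0.269 CPM in iron negative libraries and was lower in each of the 4 tags. The part of T cell content in the Ctla4 and Pdcd1 values was not tested.

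Cd276 encodes B7-H3 and lies at chr9:58524298-58555437 on the minus strand. Its levels were 34.7, 62.8, 49.9 and 44.8 CPM in iron positive libraries 3L, 3R, 4R and 5L, against 48.7, 43.4, 45.9 and 46.1 CPM in iron negative libraries. Iron positive libraries spread over a wide range (48.1 ± 11.7 CPM) around the narrow iron negative range (46.1 ± 2.15 CPM; SD, n = 4 each), and the log2 fold change was 0.06 ± 0.16 (SE; edgeR adjusted p 0.821). Without iron positive 3R it was -0.09 (adjusted p 0.631). Among the iron positive libraries the order of Cd276, from 3R through 4R and 5L to 3L, was also the order of the summed endothelial markers (1440, 851, 219 and 171 CPM) and of the summed fibroblast and fibrosarcoma markers (4710, 1730, 550 and 497 CPM). In iron negative libraries the stromal sums had the same order of tags (endothelial 71.6, 57.5, 37.4 and 35.9 CPM, fibroblast and fibrosarcoma 392, 222, 145 and 129 CPM), and Cd276 ran in the reverse order (43.4, 45.9, 46.1 and 48.7 CPM). The part of stromal cells in the Cd276 level was not tested.

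The share of Cd276 TPM held by its longer coding transcript did not overlap between the fractions, but this rested on a short transcript with few counts. Cd276-202 held 67.8%, 69.0%, 71.8% and 57.8% of Cd276 TPM in iron positive libraries 3L, 3R, 4R and 5L, against 73.8%, 84.0%, 82.5% and 88.5% in iron negative libraries. Each iron positive share lay below each iron negative share (66.6% ± 6.11 and 82.2% ± 6.13 in the iron positive and iron negative fractions; SD, n = 4 each). Cd276-201 held 27.0%, 28.0%, 16.3% and 42.2% in iron positive libraries, against 21.3%, 13.9%, 11.8% and 0.0584% in iron negative libraries, where the shares overlapped. Both have the same coding exons. Cd276-202 begins 14496 bases further upstream with a noncoding exon of 416 bases, and those bases lie within an exon of Gm10657 on the opposite strand. Gm10657 was not among the genes counted. Whether the authors' run used strand is not known here, so reads from the 2 genes may not be told apart there. The shares are kallisto's assignments and were not tested.

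**Figure D4:**
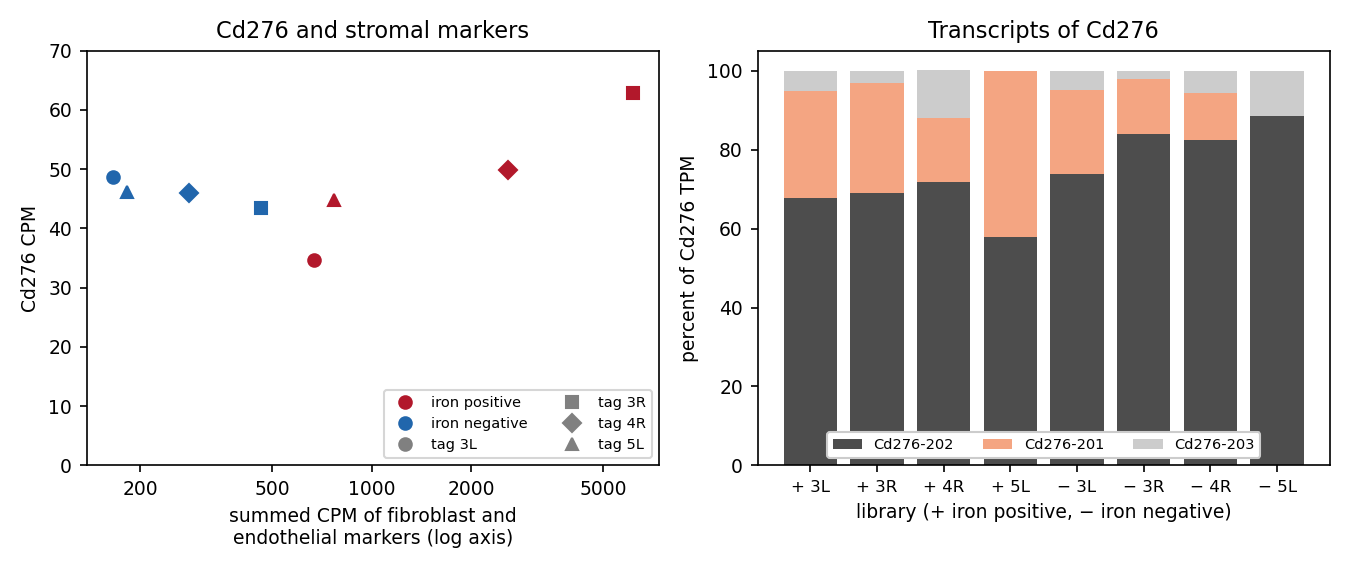
Left, Cd276 CPM against the summed CPM of fibroblast and endothelial markers (log axis) in 4 iron positive (red) and 4 iron negative (blue) libraries, marker shapes being tags. Right, percent of Cd276 TPM held by each transcript per library, iron positive libraries at the left: Cd276-202 holds 57.8% to 71.8% in iron positive and 73.8% to 88.5% in iron negative libraries.

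Among 17 tested binding partners of the checkpoint genes, 1 rose (Ceacam1) and 5 fell: the 3 MHC class II chains, Lgals9 and Pvrig. The median log2 fold change was -0.09. Of all genes tested, 8.49% rose and 5.21% fell in the same fit. Pvrig, an inhibitory receptor of the TIGIT family that binds nectin-2, stood at 6.29 ± 1.19 CPM in iron positive and 10.8 ± 1.71 CPM in iron negative libraries (SD, n = 4 each; log2 fold change -0.77, adjusted p 0.0242). Pvr, Nectin2 and Nectin3, which encode described TIGIT ligands, had positive values of 0.39 (adjusted p 0.208), 1.15 (adjusted p 0.0672) and 2.02 (adjusted p 0.0734), and in the fit blocked by tag each passed (0.0341, 0.0348 and 0.0107). In iron positive libraries 3L, 3R, 4R and 5L, Nectin2 stood at 11.7, 37.8, 27.2 and 13.0 CPM. Nectin3 stood at 0.897, 6.3, 5.1 and 1.5 CPM there. Iron negative means were 10.1 CPM (Nectin2) and 0.848 CPM (Nectin3). Iron positive 3R and 4R also held the most stromal transcripts, whose part in these values was not tested. With the block 4 partners rose and 6 fell, the sixth being Selplg (-0.25, adjusted p 0.0323), which encodes a described VISTA ligand. With macrophage marker scaling 5 partners were higher and 0 lower. Shares of all genes called with the block or with that scaling are not given here, so these counts have no background.

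Of 11 tested genes of other inhibitory pathways, 1 rose and 2 fell, with a median log2 fold change of -0.14. In the same fit, 8.49% of all genes tested rose and 5.21% fell. Tnfrsf14, which encodes HVEM, the ligand of BTLA, fell by 0.48 ± 0.07 (adjusted p 0.0173), and Lair1, an inhibitory collagen receptor, by 0.55 ± 0.11 (adjusted p 0.0207). Cd200, whose product restrains macrophages and which endothelial cells also make, rose by 4.41 ± 0.89 (adjusted p 0.0203), with 17.3 ± 15.4 CPM in iron positive and 0.821 ± 0.798 CPM in iron negative libraries (SD, n = 4 each). Of 12 tested costimulatory genes, 1 rose and 2 fell, with a median of -0.32. The rise of 1 gene in each of these lists lies near the share of all genes that rose. Icosl, the ligand of ICOS, fell by 0.71 ± 0.16 (adjusted p 0.0257) and Cd40, which receives T cell help on antigen-presenting cells, by 0.30 ± 0.07 (adjusted p 0.0269). Tnfrsf25, which encodes death receptor 3, rose by 3.24 ± 0.49 (adjusted p 0.0173), at 2.29 ± 1.13 CPM in iron positive and 0.236 ± 0.127 CPM in iron negative libraries. The part of stromal cells, whose summed markers are given above, in the Cd200 and Tnfrsf25 values was not tested. With the block, 3 of the inhibitory genes rose and 2 fell, and 2 of the costimulatory genes rose and 3 fell. With macrophage marker scaling 4 inhibitory and 2 costimulatory genes were higher and 0 were lower. That scaling put the median of all genes tested at 0.25. Shares of all genes called with the block or with that scaling are not given here, so these counts have no background.

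**Figure D5:**
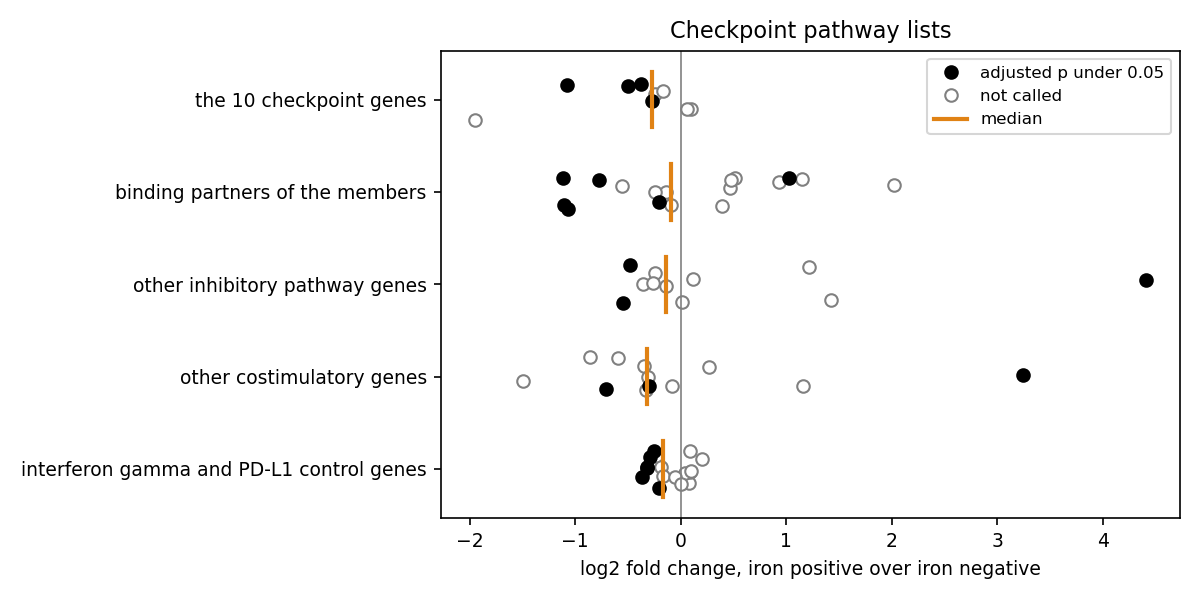
Log2 fold change (iron positive over iron negative) of each tested gene in the checkpoint set and in 4 lists of related genes; filled points have an adjusted p under 0.05, open points do not, and orange lines are medians. Medians lie between -0.32 and -0.09, and Cd200 (4.41) and Tnfrsf25 (3.24) stand far to the right.

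Profiles most like those of the 4 called genes were sought among 9893 genes by Pearson's r of log2(CPM + 0.5) over the 8 libraries. All 8 share the split by fraction, so r is a description and carries no p. Cd86 was closest to Prkcb (r = 0.997), which encodes protein kinase C beta, and Cybb (0.993), which encodes the phagocyte oxidase subunit NOX2, followed by Prcp, Tmem50b and Galnt3 (0.990 each). Lag3 was closest to Birc2 (0.993), Ganc (0.988), Capn3 (0.986), Cfb and Pou2f2 (0.985 each). Havcr2 was closest to Rala (0.989), Acsl5 (0.982), Plcg2 (0.981), Mcub (0.980) and Sema4d (0.979), and Vsir to Utp14a (0.992), Man2b1 (0.989), Heatr5b (0.976), Slc15a4 (0.974) and Adap1 (0.972). Of these, Capn3 differed most between the fractions (5.47 and 12.3 CPM on average in the iron positive and iron negative fractions, log2 fold change -1.17).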

How the data were processed

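Bulk RNA-seq of 4 iron positive and 4 iron negative libraries was used. Per the submitters' processing notes, abundances were made with kallisto 0.46.2 on mm10. Per the file headers, the deposited tables give transcripts' estimated counts, not normalized, and their TPM, which the authors' run adjusted for effective length and depth; transcript lengths were other values. The labels and headers do not state the transcript release.

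Transcripts (119414 per table) were joined to GENCODE mouse release 21 (GRCm38) by identifier without version; 2686 were unmatched (0.888% to 0.961% of counts) and left out. Estimated counts were summed per gene and rounded for tests; strand was not used. The test was edgeR 4.0.16 (R 4.3.3; TMM scaling, filterByExpr) on the fraction, adjusted by Benjamini-Hochberg over 13343 genes, and unnamed adjusted p-values come from it. SEs are the absolute coefficient over the square root of F, an approximation. CPM values were computed here with TMM scaling, and fold changes are iron positive over iron negative. Totals were 19.04 to 24.31 M counts. Intervals and floors cover counting error only.

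Alternatives were other scalings, filters, the tag as a block, DESeq2 1.42.0, limma 3.58.1 (voom, or log2 of TPM with a pseudocount of 1 or 0.1) and leaving out libraries; DESeq2 with a library left out was added after seeing the data. Same-tag libraries' deviations from their fraction's mean correlated across genes at 0.53 (3L), 0.52 (3R), 0.27 (4R) and 0.30 (5L). Each lay above the limit of 0.1, so the tags in the labels were taken as pairs in the blocked fit. The main test did not use the tag. Replicates differed beyond counting noise (chi-square per gene of at least 9.43). The edgeR test on the fraction was also run on simulated counts with known changes, and its outcome is not given here.

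The checkpoint genes, lists and markers were chosen with earlier results of these data known. The text names all 10 genes; per list and direction, up to 3 genes past the threshold with the smallest adjusted p; and the 5 genes most like each called gene, with at least 5 CPM on average. Further list and marker genes (H2-Ab1, Lgals9, Ifngr2, Rela, Cmtm6, Irf1, Cd28, Lgals3, Fgl1, Pvr, Nectin2, Nectin3, Selplg, Icos, Pdcd1lg2, Foxp3 and the other marker genes) were named after their values were seen. Of the genes this rule picked, 1 is left out of the text. Promoter windows are RefSeq's for GRCm38.p6; the Lag3 stretch and the Ctla4 exon are from the GENCODE transcripts. GRCm38 coordinates count from 1.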

Additional observations from a re-analysis of the deposited data

How the results depend on the processing

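The 4 checkpoint genes called lower became 1 with macrophage marker scaling, 2 with limma voom and 2 with log2(TPM + 1); the cause was not tested. Leaving out libraries or whole tags gave 0 to 4, with fewer libraries in each fit. The replicate block gave 5, adding Ctla4, and in this paired fit no other checkpoint gene changed its call. With the other scalings, filters and tools the count stayed between 3 and 5, and the count called higher was 0 throughout. The share of all genes called is given only for the main fit. Over 22 alternatives the log2 fold changes of Lag3, Cd86, Havcr2, Vsir and Ctla4 were negative in 22 of 22, and the adjusted p was under 0.05 in 16, 14, 10, 5 and 3 of them. Ranges were -1.22 to -0.80 for Lag3, -0.62 to -0.24 for Cd86, -0.47 to -0.13 for Havcr2 and -0.32 to -0.02 for Vsir. Genes not called changed sign in some fits. Tigit was at 0.02 with macrophage marker scaling, 0.05 with limma voom, 0.00 with log2(TPM + 1), 0.08 with log2(TPM + 0.1) and -0.55 to 0.37 over left-out libraries, and at 0.38 (without iron negative 4R) and 0.36 (without tag 4R) in DESeq2 fits added after seeing the data. Cd80 was at 0.08 with macrophage marker scaling, -0.38 to 0.01 over left-out libraries and 0.01 with DESeq2 without iron negative 3L. Cd274 ranged from -0.01 to 0.23 and Cd276 from -0.11 to 0.22 over left-out libraries, and Cd274 was at -0.01 with DESeq2 without tag 4R. Depth limits Pdcd1, Ctla4 and Tigit, with 0 to 78.9 counts a library.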
